A study of Arabidopsis thaliana with 2 samples.

Results

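Isolated nucleosomes are listed nucleosomes that stand alone, with no other listed nucleosome within 500 bp of either edge. They were chosen by position from a list of nucleosomes mapped in Arabidopsis thaliana seedlings by sequencing of DNA protected from micrococcal nuclease (MNase), which cuts the linkers between nucleosomes. The gap before each interval and the gap after it both had to reach 500 bp. Of 397452 listed nucleosomes on the 5 nuclear chromosomes, 8719 met this rule, or 2.19%. The gaps chose the members, so their counts and places are given as descriptions, while length and score were not used by the rule.

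The series has 2 libraries from seedlings of 2 to 3 weeks grown in long days, 1 from the wild-type strain Col-0 and 1 from the nrpe1 mutant. NRPE1 is the largest subunit of the plant-specific RNA polymerase V, and the labels give neither the nrpe1 allele nor the amount of MNase. The deposited list has no column for genotype, and how the libraries entered it is not stated, so each value describes the list as deposited and nrpe1 was not compared with Col-0. There were no replicates, and the depth per library is unknown.

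A nucleosome wraps DNA around a core of histones, and in plant genes nucleosomes usually lie in evenly spaced arrays. Promoters and the ends of genes are known for stretches with few nucleosomes, where transcription factors and polymerases bind. Whether the gaps described here lacked nucleosomes, reads or calls past the lowest listed score of 0.5 was not tested.

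Isolated nucleosomes made up a similar share of the list on every chromosome. From chromosome 1 to chromosome 5 they numbered 2296, 1475, 1577, 1336 and 2035. Chromosome 3 had the smallest share of its listed nucleosomes isolated, 1.94%, and chromosome 1 the largest, 2.37%, with a mean of 2.18% ± 0.175 (SD, n = 5 chromosomes). Per length of chromosome they numbered 73.0 ± 3.54 per Mb.

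Most members passed the rule by a modest margin. The smaller of the 2 gaps had a median of 724 bp (quartiles 584 and 968) and the larger a median of 1317 bp (quartiles 930 and 1940.5). The smaller gap was under 600 bp for 2483 members, or 28.5%. It reached 1000 bp for 2011, 2000 bp for 181 and 3000 bp for 18. Exactly 500 bp was found for 24 members, and 24 nucleosomes missed the rule with a smaller gap of 499 bp. Among the first members at 500 bp were one on chromosome 1 at 17314920 to 17315048 with a score of 0.880 and one at 23925902 to 23926034 with a score of 0.653. Just outside stood a nucleosome on chromosome 1 at 7199160 to 7199294, with a gap of 499 bp and a score of 0.756, and one at 30376305 to 30376431 with a score of 0.936. The median score was 0.822 over the 295 nucleosomes with a smaller gap up to 10 bp under the threshold. It was 0.833 over the 269 members with a smaller gap less than 10 bp above it.

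Many isolated nucleosomes came in runs, each separated from the next by a wide gap. Of all members, 4924 had listed neighbours that were not isolated themselves. The other 3795, or 43.5%, formed 1573 runs of 2 to 7 isolated nucleosomes in succession, of which 1125 held 2 and 306 held 3. The 4 longest runs held 7 each, and their genes are named after the values had been seen. One of them spanned 8657 bp on chromosome 1 and reached from the right part of NRPA2, which encodes the second-largest subunit of RNA polymerase I, into the space beyond it. Another, on chromosome 2, spanned 6629 bp and overlapped AT2G22970 and SCPL13, which held 4 of its centres. The other 2 spanned 8233 bp on chromosome 2, across AT2G28520, and 7973 bp on chromosome 4, across AT4G30190.

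The 4 members with the widest smaller gaps lay in gene-poor windows of chromosome 1. The member with the widest smaller gap, at 14734984 to 14735133 in AT1G39070, stood 12893 bp from the nucleosome before it and 10516 bp from the one after, with a score of 0.871. The next 3 lay on the same chromosome at 14682255, 14694823 and 14702190, with smaller gaps of 8069, 7208 and 7208 bp. For every other member the smaller gap reached at most 4730 bp, for a nucleosome on chromosome 2 at 11835573 to 11835728 that lay 1146 bp from AT2G27770.

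By place, isolated nucleosomes were found mostly outside genes, whereas most listed nucleosomes lay inside them. The centres of 5554 members, or 63.7%, lay outside every annotated gene, against 16.9% of the whole list. The flanks within 1 kb of protein-coding genes held 29.9% of the members (95% Wilson interval 28.9 to 30.9) and 6.26% of the list. Intergenic sequence farther away held 33.8% (32.8 to 34.8) and 10.6%. Protein-coding genes held 30.2% (29.2 to 31.1) of the members but 65.4% of the list. These intervals cover counting error only.

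Read the other way, 10.5% of the nucleosomes listed in flanks were isolated, 6.98% of those in intergenic sequence, 1.01% of those in protein-coding genes and 0.237% of those in pseudogenes, against 2.19% of the list. The order of flanks, intergenic sequence, protein-coding genes and pseudogenes was the same on all 5 chromosomes. Flanks ranged from 9.34% to 11.9% and protein-coding genes from 0.845% to 1.13%. The density of listed nucleosomes, on which the rule depends, differed between classes. Flanks held 1.10 listed nucleosomes per kb, of which 39.0% overlapped a neighbour, and pseudogenes held 6.32 per kb, of which 82.6% did. Counted per length instead, isolated nucleosomes were most frequent among these classes in intergenic sequence, at 146.8 per Mb, followed by flanks at 114.9, protein-coding genes at 40.8 and pseudogenes at 14.99 per Mb.

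**Figure D1:**
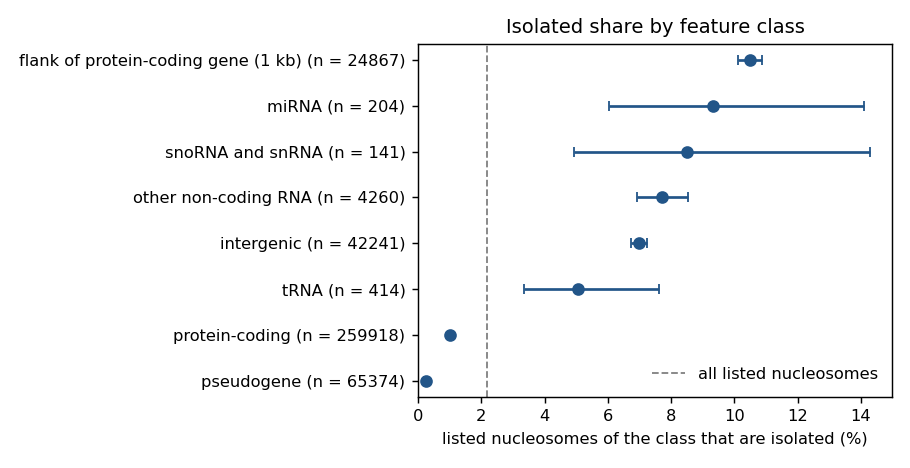
Percentage of listed nucleosomes that are isolated (x axis) in each feature class (y axis, n is the number of listed nucleosomes with their centre in the class); points are shares, bars are 95% Wilson intervals, and the dashed line marks the 2.19% of the whole list. Flanks stand at 10.5%, protein-coding genes at 1.01% and pseudogenes at 0.237%, and the 33 nucleosomes in rRNA genes, of which 0 were isolated, are not drawn.

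Isolated nucleosomes were rarer in gene-poor windows, those of 500 kb with under 50% of their chromosome's median density of protein-coding genes, than in the rest of the genome, called arms here. The 18.5 Mb of gene-poor windows held 782 members and the 100.6 Mb of arms held 7937, or 42.3 and 78.9 per Mb. Gene-poor windows thus had 8.97% of the members and 21.1% of the list. They also had 10.02% of the listed nucleosomes with a gap of at least 500 bp on 1 side alone. For nucleosomes that overlap no neighbour and are not isolated the share was 13.11%, and for overlapping ones 25.76%. A share below that of the list was therefore not particular to isolated nucleosomes. In intergenic sequence 17.7% of the nucleosomes listed on the arms were isolated against 1.69% in gene-poor windows. Flanks showed 11.3% and 3.50%. Protein-coding genes went the other way, with 0.998% on the arms and 1.43% in gene-poor windows, where 121 members lay in genes. In pseudogenes the shares were 0.382% on the arms, with 82 members, and 0.166% in gene-poor windows, with 73.

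How far isolated nucleosomes lay from protein-coding genes, compared with the list, depended on the measure. The median distance from the interval to a gene was 596 bp (95% order-statistic interval 572 to 621), while over the whole list it was 0 bp, since 66.4% of listed nucleosomes overlap a gene and 31.3% of the members do. Over chromosomes the members' median ran from 503 bp on chromosome 5 to 674 bp on chromosome 2. Among nucleosomes outside protein-coding genes the order turned, with a median of 1029 bp for the 5994 isolated ones and 4522 bp for the 133497 of the list. The mean distance, nucleosomes in genes included, was shorter for members, at 1560 bp against 5447 bp, and shorter on 5 of 5 chromosomes. From the centre to the nearest gene end, inside or outside, the medians were 830 bp and 916.5 bp. Only 2.05% of the members lay over 10 kb from a gene, against 11.5% of the list. Short distances were also seen for the 62098 listed nucleosomes with a gap of at least 500 bp on 1 side alone. Outside protein-coding genes their median was 1036 bp, their mean over all was 1365 bp, and 3.20% lay over 10 kb away. Their median over all was 0 bp, as for the list, and 67.5% overlapped a gene.

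At the ends of protein-coding genes, counts of isolated nucleosomes peaked on both sides of the boundary, while their share of listed nucleosomes was highest outside. In bins of 100 bp around the nearest gene end, the fullest was 100 to 200 bp inside the gene, with 540 members. These were 2.885% of the 18719 nucleosomes listed there, near the 2.19% of the whole list. The first 100 bp outside the gene held 141, or 2.66%, and the bin 500 to 600 bp outside held 396, or 14.0%. As a share of listed nucleosomes, isolated ones were highest 700 to 800 bp outside, at 14.6%, and lowest 800 to 900 bp inside, at 0.374%. Starts and ends of genes are mixed here, because the gene table gives no strand.

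**Figure D2:**
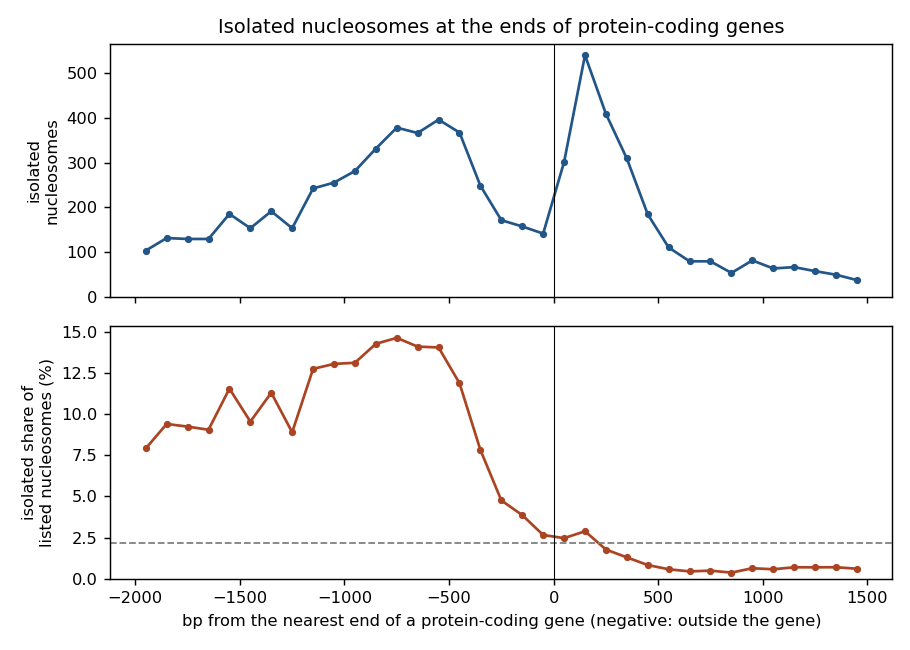
Isolated nucleosomes by distance of their centre from the nearest end of a protein-coding gene, in bins of 100 bp (x axis, negative outside the gene); the upper panel counts them and the lower panel gives their percentage of all listed nucleosomes in the bin, with the 2.19% of the whole list dashed. Counts peak at 540 just inside genes and at 396 outside, while the percentage is highest outside, at 14.6%.

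Spaces between neighbouring protein-coding genes held 6087 members. Of 23810 such spaces, 4190, or 17.6%, held at least 1 isolated centre, and these were wider, with a median of 3582 bp against 877 bp for all spaces. In spaces under 500 bp, 0.185% held one, in those of 1000 to 2000 bp 17.4%, and in those of 4000 to 8000 bp 60.5%. In 1263 spaces, of a median width of 1792 bp, the isolated nucleosome was the sole one listed. Of the 4762 spaces with a single listed centre, 26.5% held an isolated one. In the widest spaces, of 8000 bp and more, the density of listed nucleosomes was 4.15 per kb and 1.60% of them were isolated, against 13.5% in spaces of 2000 to 4000 bp, where the density was 1.23 per kb.

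The gaps on both sides of the members reached into genes less than the genome as a whole. There were 15216 of them, with a median of 940 bp and 18.4 Mb in all. Protein-coding genes filled 24.8% of this sequence, compared with 33.0% of all listed gaps of 500 bp or more and 54.1% of the genome. At least 1 end of a protein-coding gene fell inside 44.2% of the gaps beside members and inside 50.3% of all such gaps.

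The isolated nucleosomes inside protein-coding genes lay close to gene ends. Their centres had a median distance of 317.5 bp from the nearest gene end, against 662.5 bp for all nucleosomes in genes, and 32.1% lay within 200 bp of an end, against 11.9%. For 1661 of the 2630 members in genes, 1 gap lay wholly inside the gene and the other ran past its end. For 580, or 22.1%, both gaps lay inside the gene, and for 389 neither did.

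Of 27444 protein-coding genes, 2420 held at least 1 isolated centre, or 8.82%. Among them 2212 held 1, 182 held 2 and 26 held 3 or 4. Genes with isolated nucleosomes were longer, with a median of 2652 bp against 2078 bp for all genes. They were also sparser, with 2.50 against 4.03 listed centres per kb. The rule asks for wide gaps, so a lower density in these genes follows partly from it. A gene needs only 1 isolated centre to count, so longer genes have more room to qualify. The share of genes holding one was 5.14% at 1000 to 2000 bp and 19.9% at 8000 bp and more, but also 11.6% under 500 bp. Per length, isolated centres did not rise in this way. They numbered 35.7 per Mb in genes of 1000 to 2000 bp, 23.3 in those of 8000 bp and more, and 351.1 under 500 bp. In 429 genes the isolated nucleosome was the single listed centre, and these were short, with a median of 673 bp.

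The genes with most isolated nucleosomes had 4 each. In AT5G25360, all 4 listed nucleosomes were isolated, at 8800032, 8800723, 8801516 and 8802470 on chromosome 5, separated by gaps of 567, 632 and 780 bp. Their scores were 0.838, 0.939, 0.564 and 0.641, so the gene carried both high and low ones. SCPL13, which encodes a protein of the serine carboxypeptidase-like family, also had 4 of 4 isolated, with gaps of 773, 1216 and 1304 bp between them and scores of 0.789, 0.599, 0.801 and 0.727. The cyclin gene CYCJ18 again had 4 of 4, from 410320 to 414133 on chromosome 2, with scores of 0.867, 0.838, 0.848 and 0.717. In NRPA2 the 4 isolated nucleosomes, with scores of 0.870, 0.873, 0.855 and 0.890, all lay to the right of the 17 others.

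The other 5 of these 10 genes held 3 isolated nucleosomes each. CAM5, which encodes a calmodulin, held 3 of 3 isolated, with scores of 0.964, 0.960 and 0.794. MIF1, which encodes a mini zinc finger protein, held 3 of 3 with scores of 0.899, 0.831 and 0.550. CBL2, a calcineurin B-like calcium sensor, held 3 among 6 listed, with scores of 0.918, 0.824 and 0.705. AT1G32700 and AT1G14600 also had 3 of 3 isolated. AT1G31540, one of the genes with 4, had 16 listed in all.

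**Figure D3:**
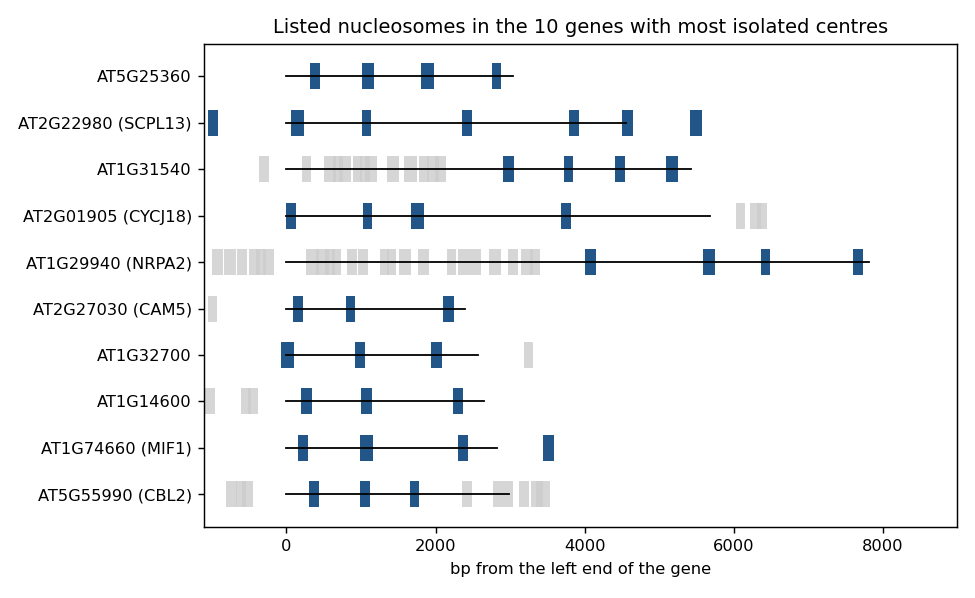
Listed nucleosomes in the 10 protein-coding genes with most isolated centres and 1 kb around them, drawn to scale from the left end of each gene (x axis, bp); black lines are genes, dark blue boxes isolated nucleosomes and grey boxes other listed nucleosomes. AT5G25360, SCPL13 and CYCJ18 hold isolated nucleosomes alone, 4 each, while NRPA2 has 4 of them beside 17 others.

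Gene families differed widely in how many of their genes held an isolated nucleosome. The 21 groups were formed by shared gene symbol or from a list, so they need not hold whole families. They were not matched for gene length. The highest share among 21 groups was in the LCR genes, small genes for cysteine-rich peptides related to plant defensins, with 29 of 80 genes or 36.3% (95% Wilson interval 26.6 to 47.2), against 8.82% of all protein-coding genes. Of these genes 69 are under 1 kb long, a length at which 7.36% of all protein-coding genes held one. In 28 of the 29 it was the single listed centre of the gene. Of the 47 LCR genes with a single listed centre these are 28, while over all protein-coding genes with a single one 44.8% have it isolated. LCR6 held one of 159 bp with a score of 0.677 and gaps of 861 and 1272 bp, and LCR63 one of 128 bp with a score of 0.944 and gaps of 1696 and 1503 bp. LCR63 was singled out after its values had been seen. Several LCR genes lie side by side on chromosome 4, so that they share gaps: LCR21 and LCR24 flank a gap of 1590 bp.

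Among developmental regulators, 17 of 97 MADS-box genes, which encode transcription factors of flowering and floral organs, held isolated nucleosomes, or 17.5% (11.2 to 26.3). AGL44, a nitrate-responsive regulator of root branching also called ANR1, held 3, with scores of 0.833, 0.823 and 0.680. AGL42 held 2, with scores of 0.774 and 0.903, and AGL17 held 2, with scores of 0.708 and 0.698. In FLC, the repressor of flowering that vernalization silences, 2 of 11 listed nucleosomes were isolated, at 3176834 to 3176963 and 3177479 to 3177626 on chromosome 5, with scores of 0.783 and 0.895 and a shared gap of 516 bp. The sole nucleosome listed in AGL20, the flowering promoter also called SOC1, was isolated too, with a score of 0.909 and 4894 bp to the next one. FLC, AGL42 and AGL20 were singled out once the values were known.

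Among other regulator families the WOX genes, homeobox regulators of stem cells, had the second-highest share of the 21 groups, with 4 of 12 genes or 33.3% (13.8 to 60.9). This interval lies above the 8.82% of all protein-coding genes. The isolated nucleosomes in WOX14 and WOX8 had scores of 0.734 and 0.864. LBD genes had 5 of 35, or 14.3% (6.26 to 29.4), and CLE peptide genes 4 of 30, or 13.3% (5.31 to 29.7). WRKY genes had 8 of 67, or 11.9%, MYB genes 11 of 117, or 9.40%, SAUR genes 1 of 16, or 6.25%, and KNOX genes 1 of 9, or 11.1%. The intervals of these 6 families contain the share of all genes. MYB88 held 2, with scores of 0.875 and 0.902 and 505 bp between them, and LBD5 held 1 with a score of 0.937.

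Shares in 3 families of enzymes and transporters were below the 8.82% of all protein-coding genes, for ABC transporters with an interval that contains it. Of 228 cytochrome P450 genes 9 held an isolated nucleosome, or 3.95% (2.09 to 7.33), and of 124 genes for ABC transporters 5 did, or 4.03% (1.73 to 9.09). The ABC genes had a median length of 4609 bp, and 15.5% of all protein-coding genes of 4000 to 8000 bp held one, above their interval. CYP724A1 held 2 isolated among 5, with scores of 0.918 and 0.897. None of the 58 UGT glycosyltransferase genes held one, in 635 listed centres, and the upper bound of the interval was 6.21%. The UGT genes had a median length of 1842.5 bp, and 5.14% of all protein-coding genes of 1000 to 2000 bp held one, inside their interval. The P450 genes had a median of 2058.5 bp, near the border of that length class. Its 5.14% lay inside the P450 interval, and the 10.2% of genes of 2000 to 4000 bp lay above it. The median density was 5.12, 4.77 and 5.58 listed centres per kb for P450, ABC and UGT genes, against 4.03 for all genes. Receptor-like protein genes, which encode surface receptors without a kinase, stood above all genes with 8 of 52, or 15.4% (8.01 to 27.5, which contains 8.82%), with RLP56 and RLP13 holding 2 each.

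Genes with housekeeping or photosynthetic roles gave mixed counts. Ribosomal protein genes had 5 of 36, or 13.9% (6.08 to 28.7). Among them was RPL23AB, whose 2 listed nucleosomes were both isolated, with scores of 0.948 and 0.775. Histone genes had 1 of 24, or 4.17% (0.739 to 20.2), in HTA8, a histone variant gene. Actin genes had 1 of 9, or 11.1% (1.99 to 43.5), in ACT1. These Wilson intervals all contain the 8.82% of all protein-coding genes. Ubiquitin genes with 13 members, light-harvesting genes with 13 and Rubisco small subunit genes with 4 held 0, with upper bounds of 22.8%, 22.8% and 49.0%.

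The title of the series names gene silencing and the SWI/SNF remodelling complex. In the RNA-directed DNA methylation genes 3 of 18 held an isolated nucleosome, or 16.7% (5.84 to 39.2), an interval that contains the 8.82% of all protein-coding genes, and NRPE1 was not among them. The median length of these 18 genes was 5246 bp, and 15.5% of all protein-coding genes of 4000 to 8000 bp held one. DRM2, the methyltransferase of this pathway, held 1 with a score of 0.798 among 14. AGO9, which binds small RNAs, held 1 with a score of 0.710 among 24, and CHR38, also called CLSY1, held 1 with a score of 0.677 among 26. The 13 SWI/SNF genes held 0 in 321 listed centres. The upper bound of their interval was 22.8%.

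**Figure D4:**
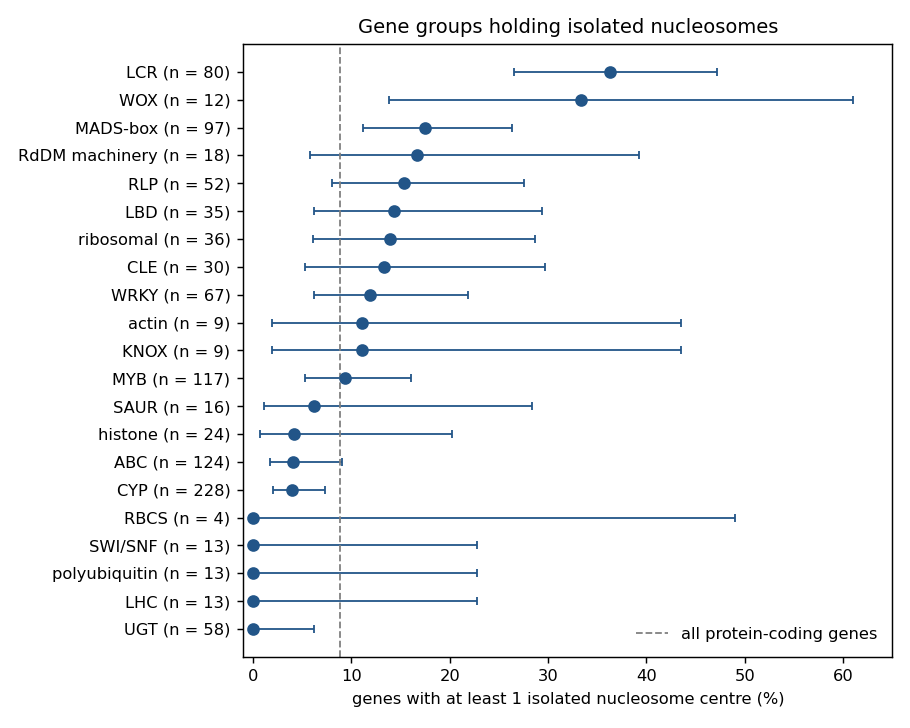
Percentage of genes with at least 1 isolated nucleosome centre (x axis) in 21 gene groups (y axis, n is the number of genes); points are shares, bars are 95% Wilson intervals over genes, and the dashed line marks the 8.82% of all protein-coding genes. LCR genes stand at 36.3% and P450 genes at 3.95%, and UGT genes held 0 of 58.

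Nucleosomes listed in small RNA genes were isolated more often than the list. Centres of 52 members lay in tRNA, miRNA, snoRNA or snRNA genes, or 6.85% of the 759 nucleosomes listed there (5.26 to 8.87), against 2.19% of the list. Of all nucleosomes listed outside genes 8.28% were isolated. All 52 lay on chromosome arms, where 2.53% of listed nucleosomes were isolated, with 11.3% in flanks and 17.7% in intergenic sequence. By class these were 21 of 414 in tRNA genes, 19 of 204 in miRNA genes and 12 of 141 in snoRNA and snRNA genes. Counted by genes, 3.36% of the 625 tRNA genes, 5.83% of the 326 miRNA genes and 3.25% of the 369 snoRNA and snRNA genes held an isolated centre. Many of these short genes held no listed centre. Of those with one the shares were 5.08%, 11.9% and 10.6%, against 8.82% of all protein-coding genes. That last share also counts 306 protein-coding genes without a listed centre. Median gene lengths were 73, 144.5 and 100 bp against 2078 bp, so the shares per gene are not directly comparable.

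The 19 miRNA genes, 5.83% of all miRNA genes, belong to 13 families. MIR157, which targets SPL genes of the change from juvenile to adult growth, had an isolated nucleosome in 3 of its 4 genes, at scores of 0.869 in MIR157d, 0.783 in MIR157c and 0.599 in MIR157b. MIR160, which targets auxin response factors, had one in 2 of 3 genes, and MIR5020 in 2 of 3. MIR166, which targets HD-ZIP III genes of leaf polarity, had one in 2 of 7, and MIR169, which targets NF-YA genes, in 2 of 14. These families were singled out after their values had been seen. The highest score in a miRNA gene was 0.945, in MIR405b, on chromosome 5 at 20632563 to 20632685. MIR5996 followed with 0.918, MIR164c, which targets NAC genes of organ boundaries, with 0.907, and MIR5020b with 0.905.

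Over tRNA genes, which RNA polymerase III transcribes, the isolated nucleosomes had a median score of 0.850, and over snoRNA and snRNA genes 0.856. The highest lay at AT3G52955, a tRNA gene on chromosome 3, at 19637107 to 19637230 with a score of 0.964 and gaps of 585 and 1229 bp. Next came the snRNA gene U6.4 with 0.958 and U1.3, which encodes a U1 RNA of the spliceosome, with 0.945. The remaining ones of the 10 highest lay at the tRNA genes AT1G68860 and AT5G50805, with 0.915 and 0.902, and at the snoRNA gene AT3G01155 with 0.903. Of other non-coding RNA genes, 328 of the 4260 listed nucleosomes were isolated, or 7.70%.

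The distance to the nearest small RNA gene was shorter for isolated nucleosomes, by much less on the arms alone. The median was 43419 bp (42114 to 45064) against 51471 bp for the list, and shorter on 5 of 5 chromosomes. The difference ran from -1143 bp on chromosome 1 to -14194.5 bp on chromosome 4. On the arms the medians were 39685 and 40282 bp, a difference of -597 bp. Within 1 kb of a small RNA gene lay 1.96% of the members and 1.72% of the list.

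Isolated nucleosomes scored higher than the list, and by less than this over listed nucleosomes without an overlapping neighbour. The score is the authors' own unit and has no definition given in the sources used here. Its median was 0.829 (95% order-statistic interval 0.826 to 0.832) for the members and 0.790 for the list, and the lower quartiles were 0.745 and 0.690. Scores of at least 0.9 were reached by 19.99% of the members and 13.0% of the list, and scores under 0.6 were found for 3.58% and 9.15%. The difference in medians was 0.0399 ± 0.00437 (SD, n = 5 chromosomes), lowest on chromosome 1 at 0.0334, and higher in members on 5 of 5. An exact two-sided sign-flip test over chromosomes gave p = 0.0625, the smallest that 5 chromosomes allow, so no call at 0.05 can be made.

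Against the 133433 nucleosomes that overlap no neighbour and are not isolated, the difference was much smaller. Their median score was 0.821, and members were higher by 0.00918 ± 0.00370 (SD, n = 5 chromosomes), again on 5 of 5 and with p = 0.0625 in the same exact test. This comparison was added after seeing the data. By the gap to the nearer neighbour, the median score was 0.769 for overlapping nucleosomes and 0.820 for gaps under 100 bp. It was 0.826 at 400 to 500 bp, 0.827 at 500 to 700 bp and 0.831 at 1000 to 2000 bp. Among bins without overlap the medians ran from 0.820 to 0.832. How the score was computed for overlapping intervals was not tested.

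**Figure D5:**
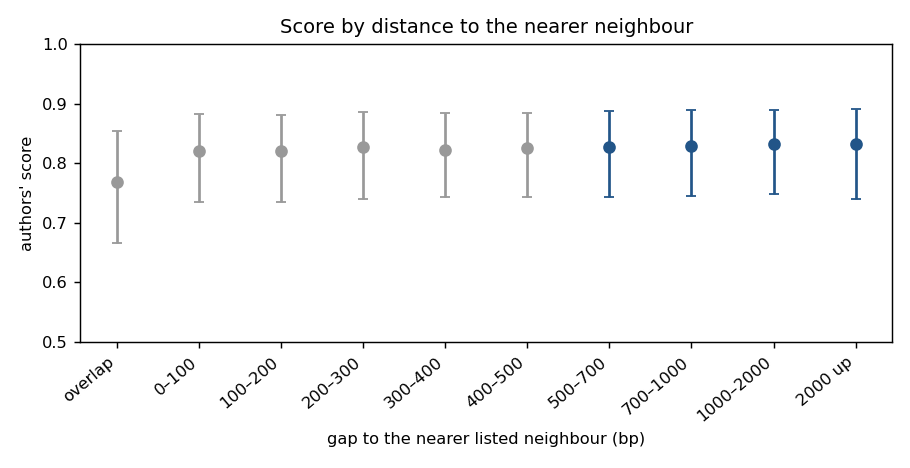
Median score in the authors' unit (y axis, drawn from 0.5, the lowest score listed) by the gap to the nearer listed neighbour in bp (x axis); bars span the quartiles, grey points are nucleosomes that are not isolated and have a nearer gap under 500 bp, and blue points are isolated ones. Overlapping nucleosomes stand at 0.769, and all bins without overlap lie between 0.820 and 0.832.

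The higher score was seen in every feature class with members, by differing amounts. In protein-coding genes the medians were 0.829 for isolated and 0.788 for all nucleosomes, in pseudogenes 0.831 and 0.782, in flanks 0.830 and 0.811, and in intergenic sequence 0.829 and 0.800. Isolated medians in these 4 classes ran from 0.829 to 0.831. Nucleosomes in flanks without overlap that were not isolated had a median of 0.829 and those in intergenic sequence 0.830, beside 0.830 and 0.829 for the isolated ones.

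The best-scored isolated nucleosome, on chromosome 5 at 17422067 to 17422199, had a score of 0.983, gaps of 562 and 786 bp, and lay 85 bp from TOPP6, which encodes a protein phosphatase. A nucleosome of 180 bp on chromosome 4 at 10512104 to 10512284 also had 0.983, with gaps of 2101 and 4163 bp. The nucleosome just before it, at 10509855 to 10510003, is among the 10 best as well, at 0.974. Of the 10 best, 5 lay in intergenic sequence, 3 in flanks and 2 in protein-coding genes, AT4G08780 and AT1G77145. The one with the longest gap on a single side, 4413 bp, stood 1122 bp from MYB37 on chromosome 5 and scored 0.974. Another, with 0.979, lay 319 bp from MIR8167b on chromosome 3. In all, 201 members scored 0.95 or more, or 2.31%, against 1.31% of the list.

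Isolated nucleosomes differed in median length from the list by 1 bp, and not from other nucleosomes without an overlapping neighbour. Their median was 137 bp (quartiles 129 and 149), and that of the list 138 bp (129 and 151). Means were 140.5 ± 15.1 bp and 141.1 ± 15.6 bp (SD over nucleosomes). The median was 1 bp shorter on 4 chromosomes and equal on chromosome 3, with p = 0.125 in the exact two-sided sign-flip test. Both spanned the whole range of the list, from 120 to 180 bp. Nucleosomes that overlap no neighbour and are not isolated also had a median of 137 bp (quartiles 129 and 149). That comparison was added after seeing the data.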

How the data were processed

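Per the labels, MNase-digested DNA of both genotypes was size-selected on a 2% agarose gel. The submitters' processing notes name Bowtie and TAIR10. Neither the caller, the score's definition nor the joining of libraries is stated in the sources used here. The deposited table gives chromosome, start, end and score for each nucleosome, per the file headers. Coordinates are printed as listed, since counting from 0 or 1 is not stated, and 0 columns hold single libraries.

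Rows were sorted, gaps taken from End to the next Start, and both required to reach 500 bp. The 10 first and last rows of chromosomes lack a gap on 1 side and could not qualify. Centres were assigned to RefSeq genes of TAIR10.1 in the order tRNA, miRNA, snoRNA and snRNA, rRNA, protein-coding, pseudogene, other non-coding RNA, flank, intergenic. This table was used for 37899.0 nuclear genes without strand. Windows of 500 kb under 50% of their chromosome's median gene density were gene-poor. The tests were exact sign-flip tests over chromosomes, which show spread along the genome only. No genome was used, so no sequence is shown. Named items were the 10 best scores, the 10 widest gaps, the 10 best-scoring in small RNA genes, the 10 genes with most members, the 2 leading genes per group, and 5 rows on each side of the threshold. Members and lists were chosen with earlier results of these data known. Python 3.11.15, numpy 2.4.6, pandas 2.3.3 and scipy 1.17.1 were used, and steps were checked on made-up intervals with known answers.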

Additional observations from a re-analysis of the deposited data

How the results depend on the processing

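No paired analysis was possible because the list does not separate the 2 libraries and each genotype has 1. The higher score of isolated nucleosomes kept its direction in all alternatives, at 0.00854 against nucleosomes without overlap and 0.00367 when nucleosomes under the median score were left out. Counting chromosome ends as gaps added no member. The share in gene-poor windows has no value on the arms alone.

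With gaps of 300, 700 and 1000 bp the members numbered 18381, 4668 and 2011, and without nucleosomes under the median score 19978. The excess outside genes over the list, 46.8 percentage points, became 36.4, 52.6 and 58.7 at those gaps, 45.3 with centres 600 bp apart, 17.9 among the higher-scoring and 51.2 on the arms. The median distance to a protein-coding gene, 596 bp, became 233, 870 and 1269 bp, 524.5 bp by centres, 535 bp on the arms and 0 bp among the higher-scoring. Measured from the centre to the nearest gene end, inside or outside, it turned to -86.5 bp relative to the list. The difference in distance to a small RNA gene, -8052 bp, became -5892 bp at 1000 bp, -597 bp on the arms, -10533 bp without chromosome 1, -12875.5 bp without tRNA genes and -23443 bp for miRNA genes alone. The deficit in gene-poor windows, -12.2 points, became -11.5 and -10.8 at 700 and 1000 bp, -11.3 among the higher-scoring and -14.0 without chromosome 1. The difference of 1 bp in median length became 0 bp by centres, on the arms, among the higher-scoring and against nucleosomes without overlap. Flanks of 500 bp and 2000 bp held 11.5% and 47.6% of the members. The comparison with nucleosomes without overlap was chosen after seeing the data. The cause of these changes was not tested, unless stated.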
